A study of Mus musculus with 28 samples.

Results

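The 7 genes described here encode immune checkpoint receptors and their ligands in the mouse: Pdcd1 (PD-1), Lag3, Havcr2 (TIM-3), Vsir (VISTA) and Sirpa among the receptors, and Cd274 (PD-L1) and Cd47 among the ligands. They were taken by gene name from a count table of 40481 mouse genes, and all 7 were found. They were picked with their values in microglia of APPPS1 against amyloid-free mice already known, so that contrast is given for them as a description without a test. RNA was sequenced from microglia, captured with an antibody against CD11b, and from astrocytes, captured with an antibody against ACSA-2, of the same brains. Every mouse carried floxed human APOE4 on both alleles (APOE4fl/fl) and received 2 intraperitoneal tamoxifen doses of 100 mg/kg, at 3.8 months, and cells came from cortex, hippocampus and thalamus 10 days after. The 4 genotype groups were APOE4fl/fl, with 2 mice, APOE4fl/fl::ALDH1L1-CreERT, with 2 mice, APPPS1::APOE4fl/fl, with 5 mice, and APPPS1::APOE4fl/fl::ALDH1L1-CreERT, with 4 mice. They are called amyloid-free Cre-negative, amyloid-free Cre-positive, APPPS1 Cre-negative and APPPS1 Cre-positive here. APPPS1 transgenes drive amyloid plaque formation, and ALDH1L1-CreERT is a tamoxifen-dependent Cre driven by a promoter used to target astrocytes. Because all mice had tamoxifen and floxed human APOE4, the effect of neither can be estimated, and every comparison holds in their presence.

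Immune checkpoints are receptor and ligand pairs that restrain immune cells. PD-1, LAG-3 and TIM-3 are best known from activated and exhausted T cells, where PD-1 answers to PD-L1, LAG-3 to MHC class II and TIM-3 to galectin-9 and phosphatidylserine, while VISTA is abundant on myeloid cells. CD47 is a widely expressed surface protein that engages SIRPα on phagocytes and so restrains engulfment.

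Each cell type had 13 libraries, 1 per mouse, with 26162612 to 63802747 counts per library over the 28 libraries of the table, and both libraries of mouse 459 were left out because they hold the genes of the other cell type. Human APOE, the floxed gene, ran from 1052 to 1864 CPM (counts per 1000000 mouse gene counts) in Cre-negative and from 507 to 926 CPM in Cre-positive astrocyte libraries, so the groups did not overlap. A list of 15 microglia identity genes summed to 44885 to 56688 CPM in 12 of the microglia libraries and to 104 to 166 CPM in the astrocyte libraries, while astrocyte identity genes summed to 36124 to 55035 CPM in the astrocyte libraries. The microglia library of mouse 26, amyloid-free Cre-positive, stood apart: its microglia identity genes summed to 23697 CPM, and its monocyte and neutrophil genes to 8013 CPM against 681 to 4171 CPM in 11 others and 7175 CPM in APPPS1 Cre-negative mouse 439. Its list of T, NK and B cell genes summed to 92.2 CPM against 14.9 to 30.7 CPM, its endothelial genes to 281 CPM against 31.9 to 118 CPM and its neuronal genes to 33.6 CPM against 6.53 to 18.3 CPM. Values that rest on this library are therefore given with and without it, or with its own level beside them.

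Microglia carried more transcript than astrocytes for 6 of the 7 genes, and Cd47 alone was lower in microglia. In a fit of all 26 libraries (edgeR quasi-likelihood test, adjusted over all genes), 7 of 7 members passed an adjusted p of 0.05, 6 higher and 1 lower, where 76.5% of all genes passed, 35.4% higher and 41.1% lower in microglia. A call in this comparison is thus the rule for genes at large, and the sizes carry more information than the count. In bulk libraries, fewer cells of a type and less RNA per cell cannot be told apart.

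Among the receptors, Havcr2, a mucin-domain receptor of T cells and myeloid cells, and Pdcd1 had the widest gaps. Havcr2 averaged 373 ± 69.6 CPM in microglia (SD, n = 13) and 0.239 ± 0.378 CPM in astrocytes (SD, n = 13), where 5 libraries held no count, a ratio of means of 1562, or 2599 without mouse 774. In the amyloid-free Cre-positive astrocyte libraries no Havcr2 count was seen, and microglia of those mice were at least 7158-fold higher when astrocytes were set at 3 counts over the group. Pdcd1 averaged 42.6 ± 41.6 CPM in microglia and 0.0754 ± 0.260 CPM in astrocytes (SD, n = 13 each), a ratio of 564, and 10 of 13 astrocyte libraries held no count of it. Of the 38 Pdcd1 counts in all astrocyte libraries, 36 lay in 1 library, that of APPPS1 Cre-negative mouse 439. Without that mouse 2 counts were left and the ratio was 12711, with a 95% Poisson interval from 3519 to 104961 for the astrocyte counts, so the order of Pdcd1 and Havcr2 turned on 1 library. In amyloid-free mice all 4 astrocyte libraries were at 0 for Pdcd1, so microglia were at least 157-fold higher on the same floor of 3 counts over the group. Floors and intervals of this kind cover counting error only.

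Lag3, an MHC class II receptor related to CD4, averaged 359 ± 73.4 CPM in microglia and 1.49 ± 1.04 CPM in astrocytes (SD, n = 13 each), a log2 fold change of 8.26 ± 0.46 (SE; edgeR adjusted p = 1.6e-13). Vsir, an inhibitory member of the B7 family, averaged 975 ± 158 CPM against 29.6 ± 7.37 CPM, a log2 fold change of 5.53 ± 0.15 (SE; edgeR adjusted p = 2.0e-18). For both genes every microglia library lay above every astrocyte library. Vsir lies within Cdh23 on the opposite strand, and since the sources used here do not say whether counting used strand, reads of the 2 genes may be mixed.

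Sirpa differed least among the receptors. It averaged 959 ± 137 CPM in microglia and 373 ± 55.6 CPM in astrocytes (SD, n = 13 each), a log2 fold change of 1.82 ± 0.10 (SE; edgeR adjusted p = 1.1e-13), with no overlap between the cell types. Reads of Sirpa could also be split with its close paralogs Sirpb1a, Sirpb1b and Sirpb1c.

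The ligands split. Cd274 averaged 46.3 ± 32.8 CPM in microglia and 4.03 ± 1.84 CPM in astrocytes (SD, n = 13 each), a log2 fold change of 4.04 ± 0.32 (SE; edgeR adjusted p = 1.1e-10), and an annotated antisense gene, AC119228.1, overlaps it. Cd47 averaged 186 ± 85.9 CPM in microglia and 358 ± 35.3 CPM in astrocytes, a log2 fold change of -0.43 ± 0.09 (SE; edgeR adjusted p = 3.1e-04), and 12 of 13 microglia libraries lay below every astrocyte library. The exception was the microglia library of mouse 26, at 450 CPM, and without it the Cd47 log2 fold change was -0.60. Scaling by DESeq2 size factors moved the median of all genes from -0.18 to -0.30, and relative to that median Cd47 stood at -0.24 under either scaling.

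**Figure D1:**
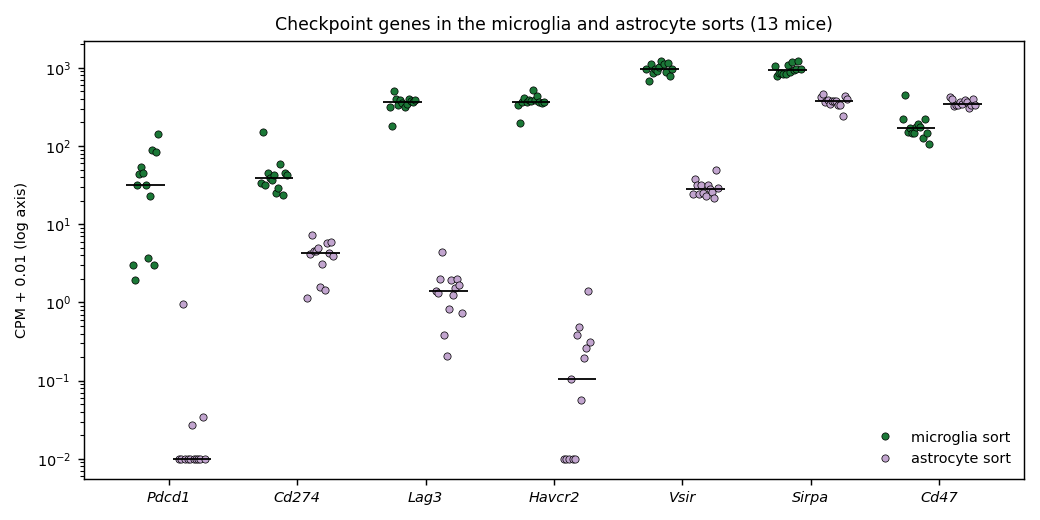
CPM plus 0.01, on a log axis, of the 7 genes in the microglia and the astrocyte libraries of 13 mice; points are libraries and lines are medians. The ratio of means is 1562 for Havcr2, 564 for Pdcd1 (12711 without mouse 439) and 241 for Lag3, whereas Cd47 lies higher in astrocytes except for 1 microglia library at 450 CPM.

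Division by the merged length of a gene's annotated exons sets levels of different genes roughly side by side. A gene with many transcripts may be divided by a length that no single transcript has. Sirpa has 14 transcripts and Cd47 has 10 in the annotation of the counts, against 1 for Pdcd1. On the scale of CPM per kilobase of exon, the median over 13 microglia libraries was 192 for Vsir, 189 for Sirpa, 172 for Lag3, 134 for Havcr2, 26.8 for Cd47, 16.5 for Pdcd1 and 10.7 for Cd274. The ranges of neighbours in that order overlapped, except those of Havcr2 and Cd47: Vsir ran from 136 to 246, Sirpa from 162 to 245, Lag3 from 86.5 to 242, Havcr2 from 73.2 to 189, Cd47 from 17.0 to 71.7, Pdcd1 from 1.01 to 73.6 and Cd274 from 6.55 to 41.6. The first 4 genes lay above the last 3 with 1 exception, the Havcr2 value of mouse 26, at 73.2, just under the highest Pdcd1 value. In astrocytes the order was Sirpa at a median of 77.04, Cd47 at 55.4, Vsir at 5.69, Cd274 at 1.18, Lag3 at 0.650, Havcr2 at 0.0344 and Pdcd1 at 0 CPM per kilobase. Sirpa and Cd47, which encode SIRPα and its ligand, were thus the members with the highest transcript levels per length in astrocytes. Sirpa ran from 48.9 to 94.4 and Cd47 from 49.1 to 67.4, and 11 of the 13 Sirpa values lay above every Cd47 value.

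The genes are spread over 7 chromosomes of GRCm38. Pdcd1 (ENSMUSG00000026285) lies on the minus strand at chr1:94038305-94052553 and Lag3 (ENSMUSG00000030124) on the minus strand at chr6:124904361-124911705. On the plus strand lie Havcr2 (ENSMUSG00000020399) at chr11:46454935-46481255, Vsir (ENSMUSG00000020101) at chr10:60346851-60372684, Sirpa (ENSMUSG00000037902) at chr2:129592835-129632228, Cd274 (ENSMUSG00000016496) at chr19:29367455-29388095 and Cd47 (ENSMUSG00000055447) at chr16:49800533-49915010.

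Promoter sequence was at hand for 5 of the 7 members, from RefSeq on GRCm38.p6, and 3 are shown because Pdcd1 and Havcr2 had the widest gap between the cell types and Cd274 is the ligand of PD-1. Each is the 250 bases before the annotated start, written 5′ to 3′ on the strand of the gene. Capitals mark GAGGAA, the core bound by PU.1, the ETS factor of myeloid cells, searched on both strands. The windows are chr1:94052554-94052803 on the minus strand for Pdcd1, chr11:46454681-46454930 on the plus strand for Havcr2 and chr19:29367188-29367437 on the plus strand for Cd274.
Pdcd1: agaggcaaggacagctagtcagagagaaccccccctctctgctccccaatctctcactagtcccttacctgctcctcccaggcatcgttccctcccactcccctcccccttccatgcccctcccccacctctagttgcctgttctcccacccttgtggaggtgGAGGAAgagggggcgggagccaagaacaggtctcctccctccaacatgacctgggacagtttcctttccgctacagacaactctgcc
Havcr2: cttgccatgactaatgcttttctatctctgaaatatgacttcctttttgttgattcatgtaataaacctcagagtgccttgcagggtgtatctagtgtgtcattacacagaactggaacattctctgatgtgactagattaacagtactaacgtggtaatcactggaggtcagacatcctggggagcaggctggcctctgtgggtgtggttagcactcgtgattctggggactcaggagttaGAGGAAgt
Cd274: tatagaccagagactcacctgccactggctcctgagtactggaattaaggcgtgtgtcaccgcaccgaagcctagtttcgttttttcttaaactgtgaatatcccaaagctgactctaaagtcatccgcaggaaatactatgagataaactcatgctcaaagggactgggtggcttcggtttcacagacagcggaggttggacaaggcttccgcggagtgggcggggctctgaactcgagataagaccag
The GAGGAA letters occurred 1 time in the Pdcd1 window and 1 time in the Havcr2 window, and 0 times in the Cd274 window, where 23.3% of 32851 windows of that length hold them. The AP-1 letters TGANTCA, which read the same on both strands, occurred 1 time in the Havcr2 window and in neither of the others, against 6.75% of windows. The GC box GGGCGG occurred 1 time each in the Pdcd1 and Cd274 windows, against 32.7% of windows. None of these motifs contains another, and a match describes the letters of the window, not binding.

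Pdcd1 was the member that differed most between microglia of APPPS1 and amyloid-free mice. Its level was 31.9, 53.1, 22.7, 83.3 and 142 CPM in the APPPS1 Cre-negative mice and 44.3, 44.5, 31.4 and 88.5 CPM in the APPPS1 Cre-positive mice. It was 3.65 and 3.01 CPM in the amyloid-free Cre-negative and 3.0 and 1.95 CPM in the amyloid-free Cre-positive mice. All 9 APPPS1 libraries lay above all 4 amyloid-free libraries, and the APPPS1 libraries themselves spread over a wide range that both Cre groups shared. The mean was 60.2 ± 38.1 CPM (SD, n = 9) against 2.90 ± 0.70 CPM (SD, n = 4), a ratio of 20.8, or 18.7 without mouse 26. The fitted log2 difference was 4.53 ± 0.55 (SE), 4.47 among Cre-negative and 4.58 among Cre-positive mice.

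Lymphocyte genes were read in the same libraries. The list of T, NK and B cell genes summed to 14.9 to 30.7 CPM in APPPS1 microglia, to 15.1 to 24.7 CPM in 3 amyloid-free libraries and to 92.2 CPM in mouse 26. Cd3e, a chain of the T cell receptor complex, held no count in any of the 4 amyloid-free and in 5 of the 9 APPPS1 libraries, where it reached at most 0.454 CPM, and Cd8a reached at most 0.0638 CPM. Other genes of the list thus made up most of its sum in the APPPS1 libraries. Another T cell gene, Lck, averaged 1.61 ± 0.786 CPM in APPPS1 and 2.67 ± 2.52 CPM in amyloid-free microglia (SD, n = 9 and 4). Of the 13 tested genes of the T, NK and B cell list, 1 was higher, Cd5 with a log2 fold change of 3.19, and 1 was lower, Ms4a1 with -4.00, in microglia of APPPS1 mice (edgeR adjusted p = 0.00302 and 0.0256). Without mouse 26, Cd5 passed with 2.84 and Ms4a1 did not, with -2.91 (edgeR adjusted p = 0.0199 and 0.219), and the median log2 fold change of the list went from -0.86 to 0.23. The part of lymphocytes in the Pdcd1 level was not tested.

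Cd47 was the other member whose groups did not overlap, a property that was not counted over all genes. It stood at 150, 148, 173, 145 and 107 CPM in APPPS1 Cre-negative and at 168, 146, 173 and 128 CPM in APPPS1 Cre-positive microglia. The amyloid-free libraries held 190 and 221 CPM in Cre-negative and 221 and 450 CPM in Cre-positive mice. Every APPPS1 library was below every amyloid-free library, with or without mouse 26, which held the 450 CPM. The APPPS1 mean of 149 ± 21.8 CPM (SD, n = 9) was 0.550 of the amyloid-free mean of 270 ± 121 CPM (SD, n = 4), and 0.707 of the mean of 211 ± 17.9 CPM (SD, n = 3) left without mouse 26. Astrocyte identity genes, whose own cells hold more Cd47, moved alongside in the microglia libraries: they summed to 134 to 249 CPM in APPPS1 and to 281 to 414 CPM in amyloid-free mice, against 36124 CPM or more in astrocyte libraries. Of the 16 genes of that list 1 was higher and 9 were lower in APPPS1 microglia (edgeR), with a median log2 fold change of -2.16, and without mouse 26 the counts were 0 and 5 and the median -2.18. Their part in the Cd47 level was not tested.

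Cd274, the ligand of PD-1, moved with a single library. It was 31.5, 38.6, 28.8, 44.7 and 42.1 CPM in APPPS1 Cre-negative and 44.7, 36.9, 42.6 and 58.6 CPM in APPPS1 Cre-positive microglia. Amyloid-free Cre-negative mice had 24.7 and 23.7 CPM, and the Cre-positive mice had 34.0 and, in mouse 26, 151 CPM. The value of mouse 26 was the highest of all 13, the Cre-negative mice were the lowest of all, and mouse 22 was within the APPPS1 range. With it the APPPS1 mean of 40.9 ± 8.66 CPM (SD, n = 9) was 0.702 of the amyloid-free mean of 58.3 ± 61.8 CPM (SD, n = 4), and without it the ratio was 1.49, against 27.5 ± 5.65 CPM (SD, n = 3). The fitted log2 difference went from -0.04 ± 0.28 (SE) to 0.69 ± 0.20 (SE) when that library was left out.

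The remaining receptors differed less than Pdcd1. Lag3 ranged from 331 to 511 CPM with a median of 383 CPM over the 9 APPPS1 libraries and read 312, 375, 316 and 182 CPM in the amyloid-free ones, the lowest value being that of mouse 26. Havcr2 ranged from 359 to 439 CPM in APPPS1 and read 514, 361, 334 and 199 CPM in amyloid-free microglia, again lowest in mouse 26. The amyloid-free libraries thus held both the highest and the lowest Havcr2 level.

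Vsir ranged from 786 to 1133 CPM in APPPS1 microglia and read 1233, 1159, 954 and 680 CPM in the amyloid-free libraries. Sirpa ranged from 828 to 1202 CPM and read 891, 966, 1061 and 795 CPM. In each of these 4 receptors the groups overlapped, and the ratio of means of APPPS1 over amyloid-free was 1.31 for Lag3, 1.08 for Havcr2, 0.956 for Vsir and 1.05 for Sirpa. Without mouse 26 the ratios were 1.16, 0.947, 0.862 and 0.9996 in that order. The fitted log2 differences with all 13 libraries were 0.55 ± 0.17, 0.31 ± 0.15, 0.09 ± 0.13 and 0.20 ± 0.13 (SE). Among Cre-negative mice they were 0.28, -0.16, -0.16 and 0.23. Among Cre-positive mice, which include mouse 26, they were 0.82, 0.78, 0.35 and 0.17.

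Over all genes of this microglial contrast 9.58% passed an adjusted p of 0.05 in the edgeR fit, 6.06% higher and 3.52% lower, 1685 genes in all. Fewer genes were called without mouse 26, 759 or 465, each of which leaves 1 mouse in its group. Since the members were chosen on this contrast, no call is given for them.

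**Figure D2:**
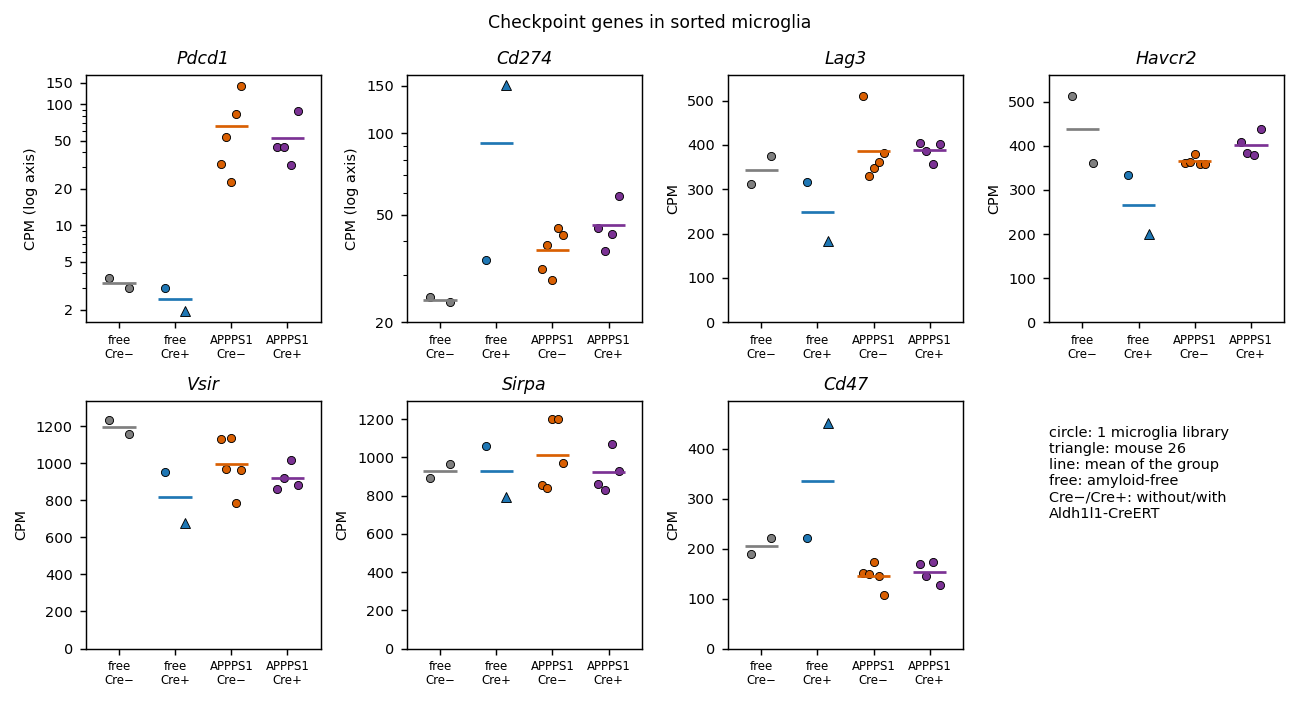
CPM of the 7 genes in each microglia library, by the 4 genotype groups; points are mice, the triangle is mouse 26 and lines are group means, with a log axis for Pdcd1 and Cd274. The APPPS1 points of Pdcd1 start at 22.7 CPM, above the amyloid-free maximum of 3.65 CPM, and mouse 26 is the highest point for Cd274 and Cd47 and the lowest for the 5 receptors.

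Mouse 26 also changed how the members stood to one another. Divided by the sum of the microglia identity genes, its Lag3 level was 7.70 CPM per 1000 identity CPM, inside the 5.59 to 9.28 of the 12 other microglia libraries. Its Havcr2 ratio of 8.40 also lay inside their range of 6.42 to 9.22, as did its Pdcd1 ratio of 0.0823 within 0.0558 to 2.66. These ranges include the APPPS1 mice. The other amyloid-free libraries alone ran from 0.0558 to 0.0668 for Pdcd1 and from 5.59 to 7.03 for Lag3, both below mouse 26. For Havcr2 they ran from 6.70 to 9.22, with mouse 26 inside. The other members lay above the range of all 12 other libraries. Vsir was at 28.7 against 14.98 to 22.1 and Sirpa at 33.5 against 14.8 to 23.6. Cd274 was at 6.36 against 0.440 to 1.13 and Cd47 at 19.0 against 2.00 to 4.92. On this scale the low Lag3 and Havcr2 levels of that library fell within those of other mice, while its Cd274 and Cd47 levels stood further out than before. The part of the other cell types' markers given above in these values was not tested.

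**Figure D3:**
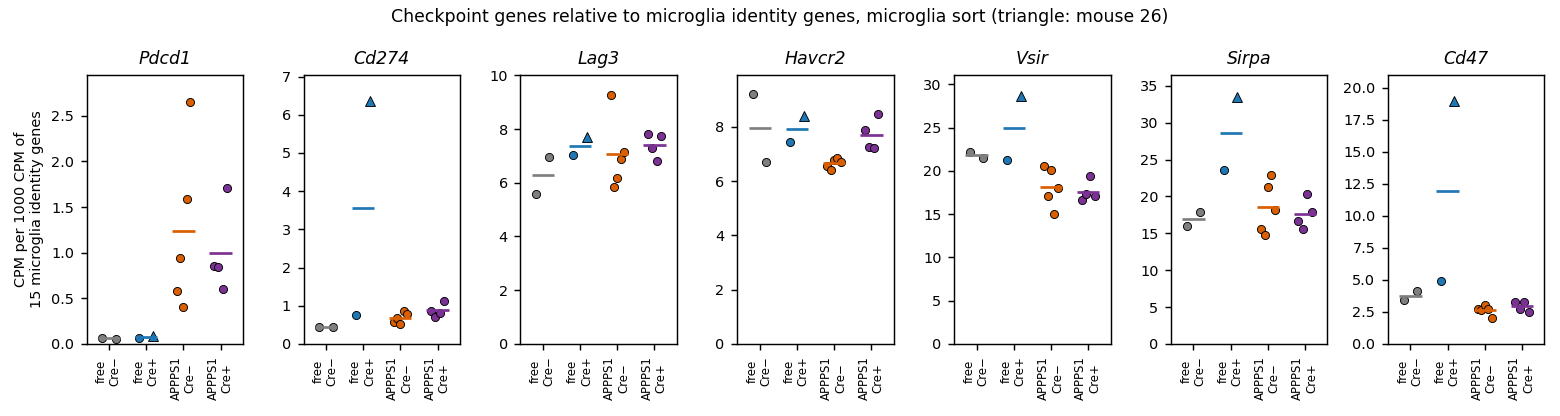
CPM of each gene per 1000 CPM of the 15 summed microglia identity genes, by genotype group; points are microglia libraries and the triangle is mouse 26. The triangle is inside the range of the other 12 libraries for Lag3, Havcr2 and Pdcd1, and above it for Vsir, Sirpa, Cd274 and Cd47. Among amyloid-free libraries alone it is also the highest for Lag3 and Pdcd1.

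The Cre comparison sets mice whose astrocytes could recombine the floxed human APOE4 against those whose astrocytes could not. In APPPS1 mice no member differed between Cre-positive and Cre-negative microglia beyond the spread between mice: 0 of 7 passed in the edgeR fit, where 0.00568% of all genes did, which is 1 gene of 17593, with 616 at an unadjusted p under 0.05 and 6 called by DESeq2. No member had an unadjusted p under 0.05 or was called by DESeq2, that is 0 of 7 for each. All 7 genes overlapped between the groups. The log2 fold change of Pdcd1 was -0.41 ± 0.47 (SE), with a 95% interval from -1.41 to 0.60, and so the data leave room for a sizeable difference either way. Intervals were narrower for the abundant receptors, from -0.40 to 0.37 for Lag3, from -0.21 to 0.47 for Havcr2, from -0.43 to 0.17 for Vsir and from -0.47 to 0.17 for Sirpa. For the ligands they ran from -0.39 to 0.94 for Cd274 and from -0.30 to 0.47 for Cd47. P-values and intervals measure the spread between these mice.

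In amyloid-free mice, with 2 mice a group, 0 of 7 members passed, where 0.0114% of all genes did (edgeR, 2 genes of 17593, with 2596 at an unadjusted p under 0.05 and 342 called by DESeq2). Cd274 had a log2 fold change of 1.82 ± 0.48 in Cre-positive mice (SE; edgeR adjusted p = 0.189), with both Cre-positive mice above both Cre-negative ones. Havcr2 and Vsir had log2 fold changes of -0.81 ± 0.24 and -0.65 ± 0.21 (SE; edgeR adjusted p = 0.231 for each). Mouse 26 was the lower Cre-positive mouse for both, at 199 and 680 CPM against 334 and 954 CPM in mouse 22. At an unadjusted p under 0.05 stood 4 members, Cd274, Havcr2, Vsir and Cd47, and DESeq2 called 1, Cd274. Without mouse 26, which leaves 1 Cre-positive mouse assumed to vary like the others, the log2 fold change of Cd274 was 0.38. More genes passed without mouse 22 instead, which leaves mouse 26 alone in its group, so those calls rest on its library.

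The difference between the Cre effect in APPPS1 and that in amyloid-free mice passed for 0 of 7 members and for 0% of all genes (edgeR, 0 of 17593, with 1527 at an unadjusted p under 0.05 and 51 called by DESeq2). It was -1.55 ± 0.57 (SE) on the log2 scale for Cd274 and 0.94 ± 0.29 (SE) for Havcr2 (edgeR adjusted p = 0.526 and 0.520). Both estimates include mouse 26, with 151 CPM of Cd274 and 199 CPM of Havcr2 against 34.0 and 334 CPM in mouse 22. More genes passed when mouse 22 was left out, which leaves mouse 26 alone in its group.

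**Figure D4:**
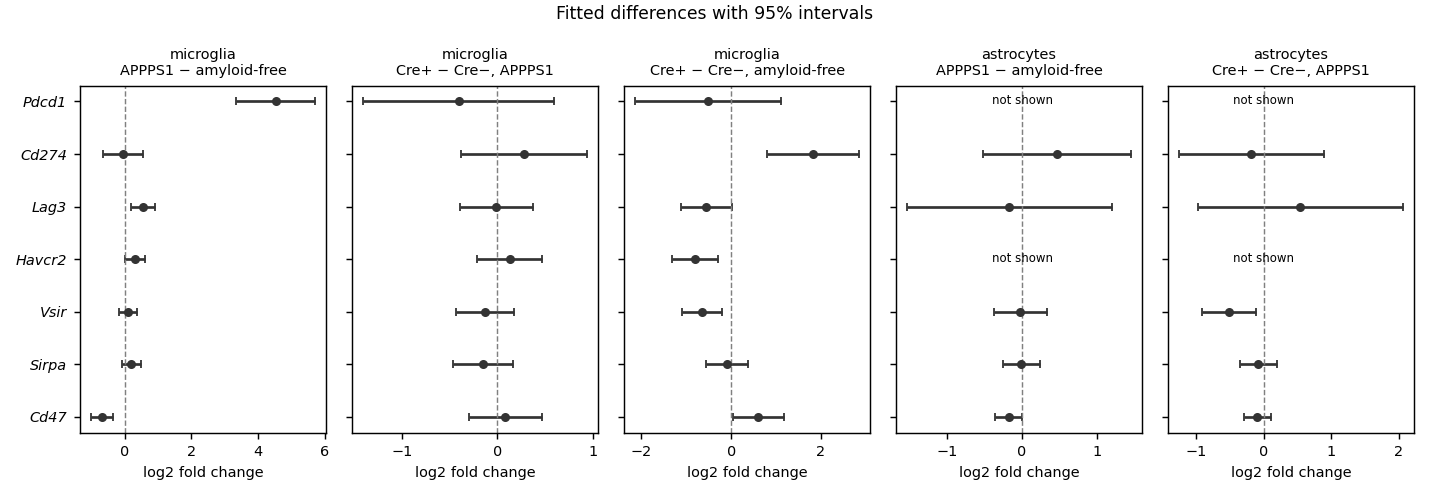
Log2 fold changes of the 7 genes with 95% intervals from the edgeR fits, for 5 comparisons in microglia and astrocytes; Pdcd1 and Havcr2 are not shown in astrocytes, where most or many libraries hold no count. Intervals of the Cre comparison in APPPS1 microglia include 0 for every gene, that of Pdcd1 reaching from -1.41 to 0.60. The members were chosen on the microglial contrast of APPPS1 against amyloid-free mice, so its intervals are a description and not a test.

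In astrocytes no member passed in any comparison. For APPPS1 against amyloid-free mice 0 of 6 tested members passed and 0% of all genes (edgeR, 0 of 20052, with 1409 at an unadjusted p under 0.05 and 254 called by DESeq2), and Pdcd1 had too few counts for a test. Cd47, the astrocyte-rich ligand, had a log2 fold change of -0.18 ± 0.08 (SE; edgeR adjusted p = 0.711). Its level ranged from 308 to 402 CPM, with a median of 336 CPM, in the 9 APPPS1 libraries and read 392, 334, 423 and 397 CPM in the amyloid-free ones. Sirpa ranged from 330 to 431 CPM in APPPS1 libraries and read 380, 240, 423 and 463 CPM in amyloid-free libraries. Both genes thus overlapped between the groups, as did the 5 others, and 0 of 6 had an unadjusted p under 0.05.

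For Cre in APPPS1 astrocytes 0 of 6 tested members passed, where 0.00997% of all genes did (edgeR, 2 of 20052, with 1343 at an unadjusted p under 0.05 and 36 called by DESeq2). Vsir read 32.1, 31.4, 28.5, 48.7 and 29.4 CPM in Cre-negative and 24.5, 24.8, 23.0 and 25.8 CPM in Cre-positive mice. All 4 Cre-positive libraries were below all 5 Cre-negative ones, and the log2 fold change was -0.52 ± 0.19 (SE; edgeR adjusted p = 0.700). It was the only member with an unadjusted p under 0.05. Its highest value, 48.7 CPM in mouse 774, came from the astrocyte library whose monocyte and neutrophil genes summed to 475 CPM, where no other exceeded 10.8 CPM, and without it the log2 fold change was -0.37. The part of such cells in the Vsir level was not tested.

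For Cre in amyloid-free astrocytes 0 of 6 tested members passed, where 0.204% of all genes did, 0.0449% higher and 0.16% lower (edgeR, 41 of 20052, with 2581 at an unadjusted p under 0.05 and 898 called by DESeq2). Sirpa read 380 and 240 CPM in Cre-negative and 423 and 463 CPM in Cre-positive mice, a log2 fold change of 0.52 ± 0.19 (SE; edgeR adjusted p = 0.258). Cd47 had a log2 fold change of 0.17 ± 0.14 (SE).

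Partners of the members were read in 5 lists, chosen with earlier results of these data known, so their calls are descriptive. Between the cell types 11 of 13 tested PD-1 and B7 family partners were higher in microglia and 1 lower (edgeR, adjusted p under 0.05), with a median log2 fold change of 5.43 beside -0.18 over all genes. For the partners of LAG-3, TIM-3 and VISTA 12 of 15 were higher and 2 lower, and for the CD47 and SIRPα axis 11 of 16 were higher and 3 lower. Among the higher ones were the galectin gene Lgals9, a ligand of TIM-3, with a log2 fold change of 6.22, and Ptpn6, the phosphatase SHP-1 recruited by SIRPα, with 10.05. Igsf11, which encodes the VISTA ligand VSIG-3, ran the other way: it averaged 114 ± 15.7 CPM in APPPS1 astrocytes and 0.103 ± 0.115 CPM in APPPS1 microglia (SD, n = 9 each). Of the TIGIT and nectin family 4 of 7 were higher and 2 lower, and without mouse 26 the counts were 2 and 2. Of the myeloid inhibitory receptors and their ligands 14 of 17 were higher and 2 lower.

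In microglia of APPPS1 against amyloid-free mice, where 9.58% of all genes passed, some partners passed in 4 of the 5 lists, and fewer without mouse 26. Among the PD-1 and B7 family partners 1 of 13 tested rose and 0 fell, the costimulatory receptor Cd28, with 4.35 ± 1.66 against 0.971 ± 0.664 CPM (SD, n = 9 and 4) and a log2 fold change of 2.35 (edgeR adjusted p = 0.0322, and 0.0535 without mouse 26). The median log2 fold change of that list was -0.26, opposite in sign to its only call, beside -0.05 over all genes. Of the partners of LAG-3, TIM-3 and VISTA 1 of 15 rose and 2 fell. Lgals9 had a log2 fold change of 0.56, and the MHC class II genes H2-Eb1 and H2-Aa, which encode ligand chains of LAG-3, had -0.96 and -1.01 (edgeR adjusted p = 0.0267, 0.0187 and 0.0307). Without mouse 26, H2-Eb1 alone of these passed.

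On the CD47 and SIRPα axis 2 of 16 rose and 3 fell, and without mouse 26 the counts were 0 and 1. Thbs1, which encodes the CD47 ligand thrombospondin-1, averaged 24.4 ± 8.93 CPM in APPPS1 and 110 ± 77.9 CPM in amyloid-free microglia (SD, n = 9 and 4), with a log2 fold change of -1.92 (edgeR adjusted p = 0.00282), and -1.47 without mouse 26 (adjusted p = 0.0332 in edgeR). Sirpb1b, a paralog of Sirpa, had -1.42, and calreticulin (Calr), a prophagocytic surface signal, had 0.55, but without mouse 26 neither passed, at -0.77 and 0.45 (edgeR adjusted p = 0.336 and 0.143). Of the TIGIT and nectin family 0 of 6 passed in either direction in edgeR. Of the myeloid inhibitory list 3 of 17 rose and 2 fell, led by Cd72 with a log2 fold change of 1.97 and Cd22 with 1.46, inhibitory lectin receptors first described in B cells (edgeR adjusted p = 0.00439 and 0.00834). Without mouse 26, 3 rose in that list and 0 fell. In no microglial Cre comparison did a gene of the 5 lists pass in edgeR, and among astrocytes only Cd24a did, with a log2 fold change of -3.33 for Cre in amyloid-free mice (edgeR adjusted p = 0.0442).

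The genes with profiles most like each member over the 13 microglia libraries were sought among 8156 genes by Pearson correlation of log2 CPM. These libraries share a table, a scaling and the spread from mouse 26, and the values are descriptive. Csf1, Cd9 and Igf1 were most like Pdcd1, with r = 0.989, 0.980 and 0.978, and with 0.918, 0.939 and 0.805 within the 9 APPPS1 libraries. By Spearman correlation over the 13 libraries these genes ranked 174, 65.5 and 198.5 among the 8156, with ties averaged. Cd34, Hexa and Serpine2 were tied highest by that measure, with rho = 0.9945. Csf1 and Igf1 encode secreted growth factors and Cd9 a tetraspanin.

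For Cd274 the nearest genes were Tpm4, Bcl2 and Txn1, with r = 0.946, 0.944 and 0.944, and 0.959, 0.882 and 0.897 without mouse 26. For Cd47 they were Cebpb, Jarid2 and Herc4, with r = 0.985, 0.968 and 0.961, and 0.954, 0.933 and 0.880 without mouse 26. For Lag3 they were the complement gene C1qb, Blnk and Gpr84, with r = 0.928, 0.918 and 0.914, which dropped to 0.775, 0.740 and 0.726 without mouse 26. For Havcr2, Extl2 and Adsl had r = 0.968 and 0.960, and 0.874 and 0.886 without mouse 26. Vsir was nearest to the microglial marker Tmem119, Clcn4 and Pla2g15, with r = 0.938, 0.922 and 0.920. Without mouse 26 its values were 0.852, 0.811 and 0.800. Sirpa was nearest to Eaf1, Ttll12 and Dgkd, with r = 0.908, 0.900 and 0.897, and 0.870, 0.853 and 0.886 without mouse 26.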

How the data were processed

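Gene counts of microglia and astrocytes from 13 of 14 mice were used. The authors deposited 1 table of raw counts, made with bcl2fastq, STAR and featureCounts of Subread on GRCm38 and GRCh38, per the submitters' processing notes. Its 95966 rows hold 258 repeated gene IDs with identical counts, kept once, which left 40481 mouse and 55093 human genes. The largest count of any human row of the members was 4. CPM are counts per 1000000 mouse gene counts of the library, and exon lengths and positions are from GENCODE M21. The series text gives 4 mice for each APPPS1 group and the labels give 5, which were followed.

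The members, lists and tests were chosen with earlier results of these data known. The test was the quasi-likelihood F test of edgeR 4.0.16 (R 4.3.3) with the default filter by group, TMM scaling and 1 term per genotype group, on 13 libraries of a cell type or on 26 for both. The Benjamini-Hochberg adjustment took in every gene tested, with a threshold of 0.05. Standard errors are the absolute log2 fold change over the square root of F. The smallest chi-square between replicates of a group was 39.5 per degree of freedom, far above counting error, and precision was set by the mice. Fits were tested on simulated data. Both cell types came from the same animal, so the mouse number pairs them. Deviations of the 2 libraries of a mouse from their group means correlated at -0.08 to 0.22, with a median of 0.0061. All 7 members are named. Of each list up to 4 passing genes of lowest p could be named, and for likeness the 3 nearest genes that averaged 3 or more on the log2 CPM scale, predicted genes left out; 1 of these is not reported here. Alternatives were DESeq2 1.42.0, its size factors, no filter on low counts, mouse 459 kept, each mouse left out and the mouse as a block.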

Additional observations from a re-analysis of the deposited data

Results flagged for a closer look

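In 7 of 28 sets of 4 or 5 libraries 1 library stood far from the rest on a range test. Chance triggers it in about 1 of 20 sets of normally spread values, a rate that does not hold for counts near 0. Pdcd1 stood at 0.940 CPM in the astrocyte library of APPPS1 Cre-negative mouse 439, where the other 4 held at most 1 count. It stood at 0.0169 CPM, 1 count, in that of APPPS1 Cre-positive mouse 460. The other 3 were at 0, so that any count triggers the test. Lag3 was at 510.7 CPM in the microglia library of mouse 439, with the nearest mouse of its group at 382.8 CPM, and that library's monocyte and neutrophil genes summed to 7175 CPM. Havcr2 was at 381.5 CPM in the microglia library of mouse 469, with the next at 364.2 CPM. In the astrocyte library of mouse 774, Havcr2 was at 1.38 CPM, next 0.301 CPM, and Vsir at 48.7 CPM, next 32.1 CPM. Sirpa was at 333.8 CPM in the astrocyte library of APPPS1 Cre-positive mouse 475, with the nearest at 376.3 CPM.

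The library labelled astrocyte of mouse 459, which entered no comparison, held microglial amounts of 6 members. It had 49.6 CPM of Pdcd1, 37.6 CPM of Cd274 and 322.4 CPM of Lag3, where the highest of the 13 other astrocyte libraries were 0.940, 7.33 and 4.35 CPM. It had 370.4 CPM of Havcr2, 966.4 CPM of Vsir and 954.3 CPM of Sirpa, where the highest others were 1.38, 48.7 and 463.4 CPM.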

How the results depend on the processing

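Depth limits mainly Pdcd1 and Havcr2 in astrocytes, with 38 and 135 counts in all 13 libraries. Where 1 mouse of a group was left, it was assumed to vary like the other groups.

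Microglia. Leaving out 1 mouse at a time gave 392 to 2441 genes for amyloid (392 without mouse 759, 432 without mouse 26, 650 without mouse 465), with Cd274 from -0.35 to 0.69. For Cre in APPPS1 mice it gave 1 to 2 genes, Lag3 from -0.069 to 0.10 and Pdcd1 from -0.79 to 0.14. For Cre in amyloid-free mice it gave 0 to 849 genes, 0 to 5 members, Sirpa from -0.40 to 0.086 and Cd47 from -0.0016 to 0.96. For the difference of the Cre effect it gave 0 to 107 genes, 0 to 2 members, Pdcd1 from -0.27 to 0.66, Sirpa from -0.22 to 0.26 and Cd47 from -0.86 to 0.10.

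Astrocytes. The same gave 0 to 2 genes for amyloid, with Vsir from -0.16 to 0.16, Sirpa from -0.16 to 0.15 and Lag3 from -0.71 to 0.0062. For Cre in APPPS1 mice it gave 2 to 4 genes, Cd274 from -0.41 to 0.091, Havcr2 from -1.86 to 0.87 and Lag3 from -0.54 to 0.92. For Cre in amyloid-free mice it gave 0 to 155 genes, Vsir from -0.13 to 0.54 and Cd274 from -1.71 to 0.19.

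With mouse 459 kept as labelled, whose libraries hold the other cell type's genes, the amyloid contrast in microglia gave 19 genes, with Vsir at -0.036. Cre in APPPS1 microglia gave Cd274 at -0.025 and Havcr2 at -0.19, Cre in amyloid-free microglia 0 genes, and the difference of the Cre effect Pdcd1 at -0.18. In astrocytes, amyloid gave Lag3 at 2.69, Vsir at 1.77 and Sirpa at 0.29. Cre in APPPS1 mice gave 1 gene, with Cd274 at 1.59, Havcr2 at 8.27, Vsir at 3.10 and Sirpa at 0.56, and Cre in amyloid-free mice gave 0 genes.

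Without a filter on low counts, microglial Cd274 was 0.00057 for amyloid, Cre in amyloid-free mice gave 146 genes and 1 member, and the difference of the Cre effect gave 28 genes, with Sirpa at 3.2e-05. In astrocytes it gave 1 gene for amyloid and 140 for Cre in amyloid-free mice. DESeq2 gave 2722 genes for microglial amyloid, 6 for Cre in APPPS1 mice, 342 and 1 member for Cre in amyloid-free mice and 51 for the difference. In astrocytes it gave 254, 36 and 898 genes in the same order of comparisons. The cause of these changes was not tested. For the pairing of the 2 cell types, the fit with the mouse as a block gave 15892 genes and 7 members between them, so no member's call changed. Alternatives added after seeing the data were likeness without mouse 26, levels divided by identity CPM, the lists without mouse 26 and the ratio between cell types without each mouse.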
